A study of Mus musculus with 60 samples.

Results

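The genes that load, dock, fuse and recycle synaptic vesicles were compared between neuronal ensembles of mice that had sought cocaine and sucrose. The list held 45 genes of the 35889 to which the transcript estimates were summed, and a gene was a member if its symbol was on the list. By function, 13 members belonged to the SNARE and fusion machinery, 13 to the active zone, 14 to the vesicle itself and 5 to endocytosis, and all 45 passed the filter on low counts in every comparison. The libraries were bulk RNA-seq of sorted neurons of the medial prefrontal cortex (mPFC) and the nucleus accumbens (NAc). The labels name the accumbens core, while by the study's methods the punches took in lateral shell as well as lateral core. The animals were Ai14:cFos-TRAP2 mice (genotype Ai14xFosiCre), in which the Fos promoter drives a tamoxifen-dependent Cre and recombination switches on tdTomato for good. By the study's methods, mice were 8 to 16 weeks old when catheters were implanted, before self-administration. No age was given for the mice of the naive libraries described below. The mice of the sorted populations had self-administered cocaine and sucrose, and tdTomato was induced with 4-hydroxytamoxifen around cue-induced cocaine seeking. The brains were taken 60 minutes after sucrose seeking, and cFos protein was stained with an antibody.

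NeuN-positive events were sorted into 4 populations. Cocaine-seeking neurons held tdTomato alone, sucrose-seeking neurons held cFos alone, overlapping neurons held both, and non-ensemble neurons held neither. Each library was made from a pool of 3 mice, with 3 female pools (F1 to F3) and 3 male pools (M1 to M3) per population and region, which gave 48 libraries. A further 12 libraries carried the label naive (6 per region), and neither the treatment of those mice nor the gate was described. The reporter marks only cells whose Fos promoter was active during the tamoxifen window, the 2 tags differ in kind (a lasting reporter and a nuclear protein stain), and the sorted events could include debris.

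Transmitter release runs through a cycle. Vesicles are held near the membrane by synapsins, docked and primed at the active zone by a scaffold of Bassoon, Piccolo, RIM, ELKS and Munc13 proteins, and fused by a bundle of SNARE proteins. Complexins clamp and assist that bundle, NSF and its SNAP adaptors take it apart, and dynamin, amphiphysin, endophilin and synaptojanin return the membrane as a new vesicle. Most of these proteins act in axon terminals, while their mRNA is made and largely kept in the cell body. In bulk libraries fewer neurons and less RNA per neuron cannot be told apart, and this holds for every difference below.

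The libraries of the 4 populations held 9933361 to 24500899 estimated counts, the naive libraries 29238727 to 45299753, and the smallest count of any member in any of the 48 libraries was 18. The labels did not hold in full. In the mPFC libraries of pools F1, F2, F3 and M2 the cortical projection neuron gene Slc17a7 (a vesicular glutamate transporter) ranged from 17.1 to 79.2 CPM (counts scaled to the effective library size), below the 124 to 604 CPM of the NAc libraries, while the striatal gene Ppp1r1b reached 799 CPM. In pools M1 and M3 Slc17a7 was higher in the mPFC (261 to 671 CPM). Even so, Slc17a7 in the NAc libraries of M1 (422 to 604 CPM) exceeded that in the mPFC libraries of M1 (261 to 407 CPM), and Ppp1r1b reached 484 CPM in the mPFC of M3. The comparisons of sorted mPFC populations and of the regions are therefore also given for pools M1 and M3 alone, a choice made after the data were seen, while the mPFC TPM levels and the naive comparison rest on all pools. The Y-linked gene Ddx3y stood at 12.4 to 20.9 CPM in the libraries of the female pool F2, against at most 2.28 CPM in F1 and F3 and 15.8 to 45.1 CPM in the male pools. The free-text notes of some libraries name another sex or region than their titles, and the titles were used. Astrocyte markers summed to 1696 to 5606 CPM in the 48 NeuN-sorted libraries, against 1902 to 6427 CPM for 13 neuron markers that are not presynaptic, and no marker of the 9 lists was at 0 in any of them.

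The members spanned more than 2 orders of magnitude in non-ensemble neurons on the TPM scale, which corrects for both library size and transcript length. The highest in both regions was Snap25, the membrane SNARE of the plasma membrane, with 1666 ± 215 TPM (SD, n = 6) in the NAc and 1103 ± 370 TPM (SD, n = 6) in the mPFC. The lowest was Cplx3, a complexin best known from retina and deep cortical layers, at 7.6 ± 5.32 TPM (SD, n = 6) and 10.8 ± 12.8 TPM (SD, n = 6). In the NAc 27 members exceeded 100 TPM. Values below are the means over 6 non-ensemble libraries, NAc first and mPFC second, and neighbours in these orders often differed by less than their SD.

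Among the SNARE and fusion genes, Cplx1 and Cplx2, the main brain complexins, stood at 886 and 403 TPM and at 710 and 436 TPM. The vesicle SNARE Vamp2 had 518 and 465 TPM, and its paralog Vamp1 had 82.5 and 35.4 TPM. The plasma membrane SNARE Stx1a had 138 and 101 TPM. The disassembly ATPase Nsf had 435 and 270 TPM, and its adaptors Napa and Napb had 130 and 153 TPM and 92.6 and 57.5 TPM. The calcium sensors Doc2a and Doc2b had 18.4 and 29.8 TPM and 61 and 38.3 TPM, and tomosyn (Stxbp5), which holds back SNARE assembly, had 57.2 and 37.3 TPM. Snap25, the complexins and Vamp2 thus led this class, with Doc2a and Cplx3 at its lower end.

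The active zone genes lay in a narrower band. The scaffold gene Bsn (Bassoon) had 242 and 212 TPM, and Pclo (Piccolo) had 94.3 and 64.7 TPM. Of the Munc13 priming factors, Unc13a had 183 and 265 TPM, Unc13c 63.9 and 24.7 TPM and Unc13b 36.3 and 28.2 TPM. The RIM genes Rims1, Rims2 and Rims3 had 144 and 99.8 TPM, 109 and 99.4 TPM, and 47 and 42.9 TPM, and the RIM-binding protein gene Rimbp2 had 113 and 145 TPM. The ELKS genes Erc1 and Erc2 had 50.1 and 40 TPM and 168 and 89.9 TPM, and the liprin-alpha genes Ppfia2 and Ppfia3 had 24.9 and 24.2 TPM and 147 and 205 TPM.

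Of the vesicle genes, Syp (synaptophysin, the most abundant vesicle membrane protein) had 875 and 996 TPM, and the small GTPase gene Rab3a had 669 and 549 TPM. Its paralogs Rab3b and Rab3c had 87.5 and 48.7 TPM and 112 and 73.9 TPM, and the Rab3 effector Rph3a had 254 and 262 TPM. The synapsin genes Syn1, Syn2 and Syn3 had 246 and 235 TPM, 203 and 161 TPM, and 32.9 and 33.7 TPM. Sv2a, Sv2b and Sv2c, which encode transporter-like vesicle glycoproteins, had 204 and 178 TPM, 68 and 59.1 TPM, and 87.7 and 62.3 TPM. The vesicle tetraspan genes Syngr1, Syngr3 and Synpr had 198 and 252 TPM, 111 and 107 TPM, and 44.6 and 23.1 TPM. Of the endocytosis genes, Dnm1 (dynamin 1, which pinches off vesicles) led with 884 and 903 TPM, Synj1 (synaptojanin) had 340 and 251 TPM, Sh3gl2 (endophilin A1) 134 and 113 TPM, the clathrin adaptor Snap91 125 and 76.7 TPM, and Amph (amphiphysin) 99.9 and 80.9 TPM.

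**Figure D1:**
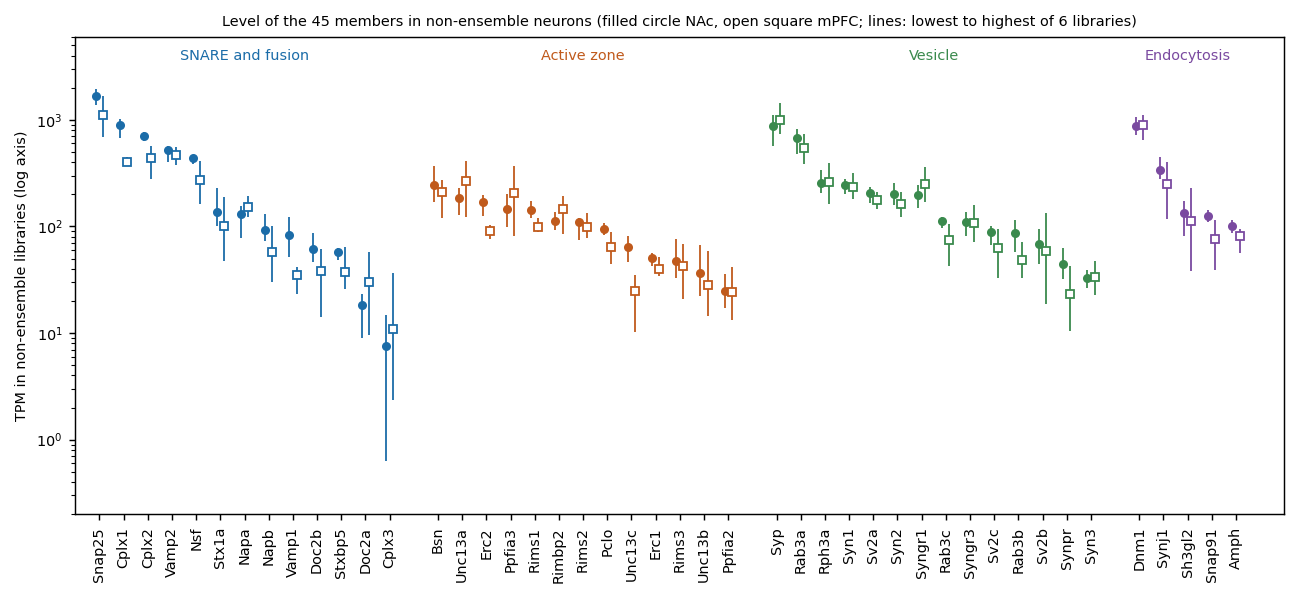
Mean TPM (log axis) of each member in non-ensemble libraries, by class, with filled circles for the NAc, open squares for the mPFC and lines from the lowest to the highest of 6 libraries. Snap25 is highest at 1666 TPM in the NAc and Cplx3 lowest at 7.6 TPM, and the mPFC lines are often longer than the NAc lines.

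The comparison of sucrose-seeking with non-ensemble neurons sets cells that held cFos alone against cells with neither tag. Overlapping neurons also held cFos and are compared further below. In the NAc 35 of the 45 members were lower in sucrose-seeking neurons and 2 were higher, with shares of 19.6% lower and 16.8% higher among the 25150 genes tested. The median log2 fold change of the members was -0.56, against 0.22 over all genes tested. The vesicle genes fell almost as a block (13 of 14 lower, median -0.73), as did the SNARE and fusion genes (11 of 13, median -0.70) and the endocytosis genes (5 of 5, median -0.55). In each of these classes some calls did not hold with length-scaled counts (described below). The active zone genes were divided, with 6 of 13 lower, 1 higher and 6 that did not pass (median -0.12). With a stricter rule that asked for an adjusted p below 0.01 together with a log2 change beyond 0.75 in size, 11 members were lower and none was higher, and 2.57% of all genes were lower.

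Among the SNARE and fusion genes, the complexins stood at the front. Cplx1 ranged from 555 to 743 CPM (median 705) in the 6 non-ensemble libraries and from 254 to 479 CPM (median 352) in the 6 sucrose-seeking libraries. The groups did not overlap, and the log2 fold change was -0.98 ± 0.08 (SE, adjusted p = 4e-10), a level 1.97-fold lower. Cplx2 ranged from 1581 to 2121 CPM (median 1856) and from 893 to 1461 CPM (median 966), again without overlap, with a change of -0.82 ± 0.06 (SE, adjusted p = 2.5e-10). The third complexin, Cplx3, did not pass (0.02 ± 0.33, adjusted p = 0.96). Nsf, the ATPase that recycles SNARE bundles, ranged from 648 to 780 CPM (median 686) and from 348 to 489 CPM (median 403), and differed by -0.76 ± 0.07 (SE, adjusted p = 2.3e-09). Vamp2 and Vamp1 were both lower, by -0.75 ± 0.08 and -0.46 ± 0.08. Snap25 (-0.72 ± 0.07), Napb (-0.72 ± 0.07), Doc2b (-0.70 ± 0.08), Stx1a (-0.53 ± 0.08), Napa (-0.37 ± 0.08) and Stxbp5 (-0.17 ± 0.06) were lower too, and Doc2a (-0.34 ± 0.18) did not pass.

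Of the vesicle genes, synapsin 1 and Rab3b fell most, followed by Rab3a, Rph3a and Syp. Syn1 ranged from 401 to 498 CPM (median 426) in non-ensemble libraries and from 189 to 330 CPM (median 231) in sucrose-seeking libraries, with no overlap and a change of -0.86 ± 0.07 (SE, adjusted p = 6e-10). Syn2 was lower by less (-0.59 ± 0.06), and Syn3, the third synapsin, was higher (0.35 ± 0.09, adjusted p = 0.002). Syn3 was higher in 6 of 6 pools, although its groups overlapped (28 to 50.6 CPM against 37.9 to 61 CPM). The Rab3 effector Rph3a ranged from 340 to 503 CPM (median 375) and from 187 to 310 CPM (median 223), and differed by -0.80 ± 0.06 (SE, adjusted p = 5.2e-10). Rab3a, Rab3b and Rab3c moved alike, at -0.81 ± 0.09, -0.85 ± 0.12 and -0.75 ± 0.07. Syngr1, a vesicle tetraspan, ranged from 266 to 393 CPM (median 332) and from 151 to 257 CPM (median 183), and differed by -0.77 ± 0.06 (SE, adjusted p = 7.1e-10). Of the Sv2 glycoproteins, Sv2a (-0.71 ± 0.07) and Sv2b (-0.59 ± 0.07) had larger estimates than Sv2c (-0.41 ± 0.06), and all 3 passed. Syp (-0.79 ± 0.07), Syngr3 (-0.67 ± 0.10) and Synpr (-0.34 ± 0.08) completed the class.

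Within the active zone Bassoon and the small RIM had the largest falls, and neither held with length-scaled counts (described below). Bsn ranged from 1530 to 1939 CPM (median 1644) in non-ensemble and from 857 to 1197 CPM (median 993) in sucrose-seeking libraries, without overlap (-0.76 ± 0.06 SE, adjusted p = 2.5e-10). Rims3, which encodes a short RIM protein without the priming domains, ranged from 105 to 151 CPM (median 127) and from 61.8 to 94.8 CPM (median 80.7), also without overlap (-0.70 ± 0.08 SE, adjusted p = 2.6e-08). Ppfia3 ranged from 245 to 307 CPM (median 264) and from 160 to 214 CPM (median 182), at -0.56 ± 0.06 (SE, adjusted p = 3.6e-08). Rims1 was lower (-0.38 ± 0.06) and Rims2 was not called (0.02 ± 0.06). Pclo (-0.33 ± 0.05) and Unc13c (-0.31 ± 0.05) were lower by smaller amounts, and these calls and that of Rims1 turned on the neuron marker scale below. Unc13a (0.01 ± 0.06), Rimbp2 (0.03 ± 0.06), Erc1 (-0.07 ± 0.07), Erc2 (0.05 ± 0.06) and Ppfia2 (-0.12 ± 0.07) did not pass. Unc13b, a priming factor that in the brain works beside Unc13a, went the other way. It ranged from 48.7 to 86.2 CPM (median 73.2) in non-ensemble and from 93.9 to 112 CPM (median 101) in sucrose-seeking libraries, with no overlap and a change of 0.58 ± 0.10 (SE, adjusted p = 4.4e-05).

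The endocytosis genes were all lower, though Dnm1 did not hold with length-scaled counts. Dnm1 ranged from 951 to 1232 CPM (median 1090) and from 549 to 812 CPM (median 682), at -0.69 ± 0.06 (SE, adjusted p = 5.1e-10). Sh3gl2 ranged from 108 to 139 CPM (median 114) and from 57.7 to 88 CPM (median 73.4), at -0.70 ± 0.07 (SE, adjusted p = 1.3e-08). Synj1 ranged from 369 to 445 CPM (median 416) and from 248 to 315 CPM (median 284), at -0.55 ± 0.07 (SE, adjusted p = 2.1e-07). None of these groups overlapped, and Amph (-0.55 ± 0.07) and Snap91 (-0.49 ± 0.07) were lower as well. Over the whole list, 33 members were lower in 6 of 6 pools, against 16.7% of all genes tested. For 25 members the NAc groups did not overlap, a count that includes Unc13b, which was higher. Among all genes 7.78% were lower without overlap, a share that leaves out genes that were higher.

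Sequences upstream of 3 of these genes are shown because they stand at the ends of the range: Syn1 and Cplx1 fell most in their classes in the NAc, and Unc13b rose. They are the 250 bases before the annotated start in RefSeq (build GRCm38.p6), in which 38 of the 45 members had an entry: chrX:20920919-20921168 on the minus strand for Syn1, chr5:108550028-108550277 on the minus strand for Cplx1 and chr4:43058703-43058952 on the plus strand for Unc13b. They were picked after the values were seen. Capitals mark the cAMP response element TGACGTCA, the left part of the RE1 element TTCAGCACC, and the GC box GGGCGG, each searched on both strands.
Syn1: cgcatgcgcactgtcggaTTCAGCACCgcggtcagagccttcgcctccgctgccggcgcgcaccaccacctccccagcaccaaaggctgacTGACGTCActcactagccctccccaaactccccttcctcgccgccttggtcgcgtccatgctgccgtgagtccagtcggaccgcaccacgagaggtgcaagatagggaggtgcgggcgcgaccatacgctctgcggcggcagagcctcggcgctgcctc
Cplx1: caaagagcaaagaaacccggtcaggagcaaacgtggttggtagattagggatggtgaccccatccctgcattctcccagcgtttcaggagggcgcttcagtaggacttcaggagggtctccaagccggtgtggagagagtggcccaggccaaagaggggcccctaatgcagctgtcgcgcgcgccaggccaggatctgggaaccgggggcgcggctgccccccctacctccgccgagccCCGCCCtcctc
Unc13b: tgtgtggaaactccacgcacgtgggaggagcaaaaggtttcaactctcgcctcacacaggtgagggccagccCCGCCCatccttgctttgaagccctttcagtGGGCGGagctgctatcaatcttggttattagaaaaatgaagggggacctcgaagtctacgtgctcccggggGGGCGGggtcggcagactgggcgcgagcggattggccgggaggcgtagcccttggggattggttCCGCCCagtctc
The window of Syn1 held both the cAMP response element and the RE1 part, that of Cplx1 held 1 GC box and that of Unc13b held 4. Over the list, TGACGTCA was found for 2 of 38 members (Syn1 and Sh3gl2) and for 1.77% of all genes, TTCAGCACC for 2 of 38 (Syn1 and Ppfia3) and 0.348%, and GGGCGG for 27 of 38 and 35.4%. A match of letters is a description and not a bound site.

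Other cell markers moved with these genes. In the NAc 12 of the 13 neuron markers that are not presynaptic were lower in sucrose-seeking neurons (median log2 fold change -0.76), while Snhg11 was higher (1.22 ± 0.14, adjusted p = 9.6e-08). The summed level of the 13 ranged from 3720 to 5138 CPM, against 5606 to 6427 CPM in non-ensemble neurons. Astrocyte markers were lower as well (6 of 6), at 2389 to 3845 CPM against 4408 to 5526 CPM, and endothelial markers were higher (6 of 6), at 92.3 to 230 CPM against 57.8 to 108 CPM. The share of counts on pseudogenes was 4.71% to 7.32% against 2.98% to 4.11%. When counts were scaled to the 13 neuron markers, a choice made after the data were seen, 19 members were lower and 12 higher (3.4% lower and 49.6% higher among all genes), with a median of -0.04, while the median of all genes moved from 0.22 to 0.73. The scale rests on the sum of all 13 markers, Snhg11 included, and was not repeated without it. On that scale Cplx1 (-0.47 ± 0.05), Syn1 (-0.35 ± 0.05) and Cplx2 (-0.31 ± 0.04) were still lower, while Unc13a (0.53 ± 0.06), Rims2 (0.54 ± 0.06) and Erc2 (0.56 ± 0.06) were higher. The calls of 4 members turned from lower to higher, namely Stxbp5 (0.35 ± 0.06, adjusted p = 3.8e-05), Unc13c (0.20 ± 0.05, adjusted p = 0.0016), Pclo (0.18 ± 0.04, adjusted p = 0.00075) and Rims1 (0.13 ± 0.05, adjusted p = 0.047).

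The estimated transcript lengths moved too. The effective length of a gene, averaged over its transcripts by their TPM, was shorter in sucrose-seeking than in non-ensemble neurons for 40 of 45 members in the NAc (median log2 ratio -0.51), and in 6 of 6 pools for 31 of them. For Bsn its median was 3508 bases against 7845 bases, and for Ppfia3 748 against 1920 bases. With counts rescaled by these lengths, 21 members were lower and 4 higher in the NAc (14.6% of all genes lower), and the changes of Bsn (0.09 ± 0.17, adjusted p = 0.74), Rph3a (0.02 ± 0.16, adjusted p = 0.94) Syngr1 (0.22 ± 0.15, adjusted p = 0.34) and Rims3 (-0.00 ± 0.15, adjusted p = 0.99) did not pass. Dnm1 (-0.06 ± 0.12, adjusted p = 0.76), Syp (-0.01 ± 0.16, adjusted p = 0.98), Syn2 (-0.11 ± 0.12), Syngr3 (-0.20 ± 0.14), Sv2a (-0.12 ± 0.11) and Sv2c (-0.19 ± 0.12) did not pass either. Nor did Stx1a (-0.22 ± 0.12), Doc2b (-0.30 ± 0.13), Napa (0.09 ± 0.15) and Rims1 (-0.13 ± 0.11). Ppfia3 turned to 0.58 ± 0.20 (SE, adjusted p = 0.036), and Unc13b fell short of the threshold (0.24 ± 0.18, adjusted p = 0.37). Under every alternative in both regions other than the stricter threshold, 10 members were called lower: Snap25, Vamp2, Cplx1, Cplx2, Nsf, Napb, Syn1, Rab3a, Rab3c and Sh3gl2. Of these, 6 belong to the SNARE and fusion class, 3 to the vesicle class and 1 to the endocytosis class.

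In the mPFC 32 members were lower in sucrose-seeking neurons and 3 were higher, beside 14.6% lower and 12.1% higher among the 26861 genes tested. The members' median was -0.50, against 0.11 over all genes. By class, 10 of 13 SNARE and fusion genes were lower (median -0.64), 12 of 14 vesicle genes (median -0.57), 5 of 5 endocytosis genes (median -0.50) and 5 of 13 active zone genes (median -0.01). By the stricter rule 3 members were lower, namely Rab3a, Rab3b and Syn1, beside 0.867% of all genes. With pools M1 and M3 alone 29 members were lower and none was higher (8.49% of all genes lower), and the median was -0.63.

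Here the groups overlapped for every member but 1, as pools differed widely in level, while 31 members were lower in 6 of 6 pools, beside 16.4% of all genes. Vamp2 ranged from 282 to 589 CPM (median 425) in non-ensemble and from 145 to 372 CPM (median 266) in sucrose-seeking libraries, and differed by -0.69 ± 0.07 (SE, adjusted p = 1.2e-08). Snap25 ranged from 472 to 921 CPM (median 657) and from 255 to 592 CPM (median 432), at -0.66 ± 0.06 (SE, adjusted p = 1.6e-08). Nsf ranged from 272 to 595 CPM (median 427) and from 162 to 377 CPM (median 270), at -0.67 ± 0.07 (SE, adjusted p = 2.4e-08). All 3 were lower in 6 of 6 pools, and in pools M1 and M3 alone they stood at -0.77 ± 0.13, -0.70 ± 0.12 and -0.76 ± 0.14. Cplx1 (-0.69 ± 0.08) and Cplx2 (-0.64 ± 0.07) were lower, and so was Cplx3 (-0.80 ± 0.24, adjusted p = 0.012) at 2.74 to 14.2 CPM in non-ensemble and 1.88 to 5.5 CPM in sucrose-seeking libraries. Vamp1, lower in the NAc, did not pass here (0.07 ± 0.09).

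Of the vesicle genes, Rab3a ranged from 154 to 359 CPM (median 273) in non-ensemble and from 72.8 to 205 CPM (median 140) in sucrose-seeking libraries, and at -0.85 ± 0.06 (SE, adjusted p = 4.5e-10) it had the largest fall of any member in the mPFC. Syn1 ranged from 177 to 463 CPM (median 297) and from 95.1 to 283 CPM (median 179), at -0.77 ± 0.06 (SE, adjusted p = 8.3e-10). Syp ranged from 347 to 1101 CPM (median 694) and from 191 to 699 CPM (median 434), at -0.67 ± 0.06 (SE, adjusted p = 9.4e-09). Rab3b (-0.77 ± 0.11) and Rab3c (-0.56 ± 0.06) were lower with Rab3a. Syn2 (-0.50 ± 0.07) followed Syn1, and Syn3 was higher (0.30 ± 0.08, adjusted p = 0.0083) but not in pools M1 and M3 alone (0.07 ± 0.16). Sv2a (-0.46 ± 0.06), Sv2b (-0.51 ± 0.08) and Sv2c (-0.28 ± 0.06) were lower, and Synpr (-0.10 ± 0.10) did not pass.

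The active zone was divided in the mPFC as well. Bsn ranged from 653 to 1721 CPM (median 811) and from 420 to 928 CPM (median 592), at -0.55 ± 0.06 (SE, adjusted p = 2e-07). Rims3 ranged from 65.8 to 86.1 CPM (median 70.9) and from 45.6 to 64.1 CPM (median 50.6), at -0.41 ± 0.06 (SE, adjusted p = 1.2e-05), and was the 1 member whose groups did not overlap, beside 0.227% of all genes that were lower without overlap. Ppfia3 ranged from 120 to 245 CPM (median 184) and from 82 to 190 CPM (median 130), at -0.39 ± 0.07 (SE, adjusted p = 7.6e-05). Rims1 (-0.19 ± 0.07) and Pclo (-0.16 ± 0.05) were lower, while Rims2 (0.01 ± 0.07), Unc13a (0.08 ± 0.06) and Unc13c (-0.01 ± 0.08) did not pass. Unc13b (0.41 ± 0.10, adjusted p = 0.002) and Erc2 (0.26 ± 0.06, adjusted p = 0.0016) were higher, and neither passed in pools M1 and M3 alone (0.13 ± 0.17 and 0.17 ± 0.13). Of the endocytosis genes, Dnm1 ranged from 453 to 1108 CPM (median 686) and from 254 to 713 CPM (median 455), at -0.63 ± 0.06 (SE, adjusted p = 5.6e-09). Sh3gl2 ranged from 45.1 to 151 CPM (median 78.7) and from 30.9 to 88 CPM (median 54), at -0.62 ± 0.07 (SE, adjusted p = 3.5e-07), and Synj1 from 204 to 460 CPM (median 335) and from 133 to 317 CPM (median 216), at -0.50 ± 0.06 (SE, adjusted p = 7e-07).

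Similar limits held in the mPFC, with a smaller shift in length. Effective lengths were shorter for 38 of the 45 members (median log2 ratio -0.26), and in 6 of 6 pools for 8 of them. Neuron markers were lower (12 of 13, median -0.65) except Snhg11 (1.17 ± 0.10), with sums of 1902 to 4425 CPM against 2781 to 5521 CPM, and endothelial markers were higher (5 of 6). Of the astrocyte markers, Aqp4 (-0.18 ± 0.07, adjusted p = 0.058) and Gja1 (-0.14 ± 0.07, adjusted p = 0.13) did not pass, and the others were lower. Scaled to the neuron markers, 18 members were lower and 14 higher (3.8% lower and 34.9% higher among all genes, members' median -0.14), and the calls of Pclo (0.20 ± 0.04, adjusted p = 0.00075) and Rims1 (0.17 ± 0.05, adjusted p = 0.015) turned from lower to higher. With length-scaled counts 17 were lower and 2 higher (9.44% of all genes lower), and Rims3 (0.05 ± 0.17) and Ppfia3 (0.18 ± 0.23) changed sign without passing. Syp (-0.30 ± 0.18, adjusted p = 0.31), Bsn (-0.10 ± 0.18, adjusted p = 0.8) and Dnm1 (-0.33 ± 0.17, adjusted p = 0.25) did not pass either.

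**Figure D2:**
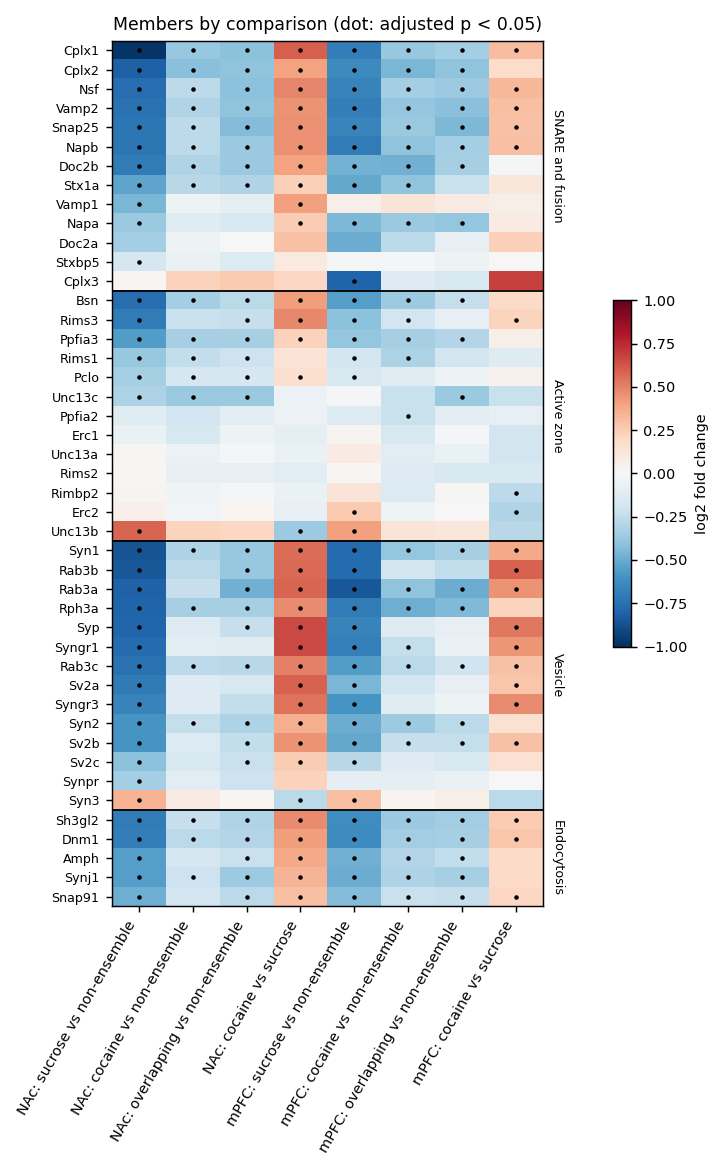
Log2 fold change of each member (rows, by class) in 8 comparisons (columns), with blue for lower, red for higher and a dot where the adjusted p was under 0.05. The sucrose against non-ensemble columns are mostly blue in the SNARE, vesicle and endocytosis classes, down to -0.98 for Cplx1 in the NAc, with Syn3 red in both regions, while the active zone is mixed, from Bsn in blue to Unc13b in red.

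**Figure D3:**
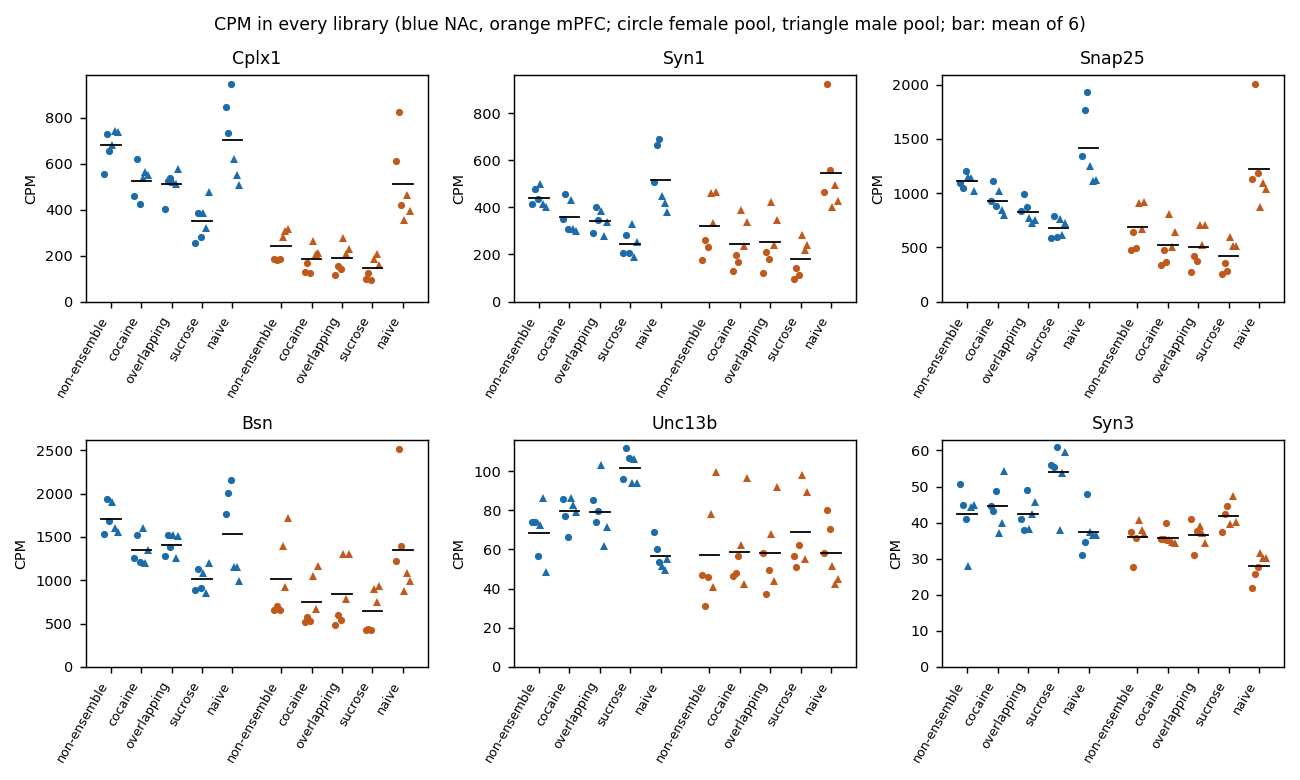
CPM (linear axis from 0) of 6 members in every library, with blue for the NAc and orange for the mPFC, circles for female and triangles for male pools, and a bar at the mean of 6. The means of Cplx1, Syn1, Snap25 and Bsn are lowest in sucrose-seeking neurons of both regions, and those of Unc13b and Syn3 are highest there.

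Cocaine-seeking neurons were next compared with non-ensemble neurons. The members were lower here too, by smaller amounts. In the NAc 20 members were lower and none was higher (6.6% of all genes lower), with a median of -0.19 against 0.08 over all genes. Unc13c ranged from 190 to 382 CPM (median 307) in non-ensemble and from 140 to 294 CPM (median 246) in cocaine-seeking libraries, and differed by -0.37 ± 0.05 (SE, adjusted p = 9.7e-05). Cplx2 ranged from 1265 to 1595 CPM (median 1333) in cocaine-seeking libraries and differed by -0.42 ± 0.06 (SE, adjusted p = 0.00013), while Bsn (-0.34 ± 0.06) and Ppfia3 (-0.33 ± 0.06) had the next lowest adjusted p. With length-scaled counts 2 members stayed lower in the NAc (1.39% of all genes lower), and Bsn (0.07 ± 0.17) and Ppfia3 (0.18 ± 0.20) changed sign without passing. The vesicle membrane genes Syp (-0.13 ± 0.07), Syngr1 (-0.11 ± 0.06) and Sv2a (-0.13 ± 0.07) did not pass. The count of 20 fell to 12 without pool F3, to 11 without pool M2 and to 0 in male pools alone (19 at p below 0.05 before adjustment). No shares over all genes are given for these sets.

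In the mPFC 26 members were lower in cocaine-seeking neurons and none was higher (10.4% of all genes lower, members' median -0.24). Cplx2 ranged from 667 to 1162 CPM (median 891) in non-ensemble and from 432 to 813 CPM (median 694) in cocaine-seeking libraries, at -0.46 ± 0.07 (SE, adjusted p = 5.1e-05). Rph3a (-0.49 ± 0.07), Rab3a (-0.40 ± 0.06) and Syn1 (-0.39 ± 0.06) followed it, and all 5 endocytosis genes were lower. In pools M1 and M3 alone no member passed edgeR's quasi-likelihood test, and the median stood at -0.32. Before adjustment 22 had p below 0.05, a count given without its share over all genes. With length-scaled counts 3 members were lower in the mPFC (2.94% of all genes lower). Scaled to the neuron markers, 8 members were higher and 1 lower in the NAc (19.1% higher and 0.302% lower among all genes), and 10 higher and 1 lower in the mPFC (28.5% and 0.529%). Microglial markers moved in the other direction, with 6 of 6 higher in the NAc (233 to 304 CPM against 122 to 194 CPM) and 5 of 6 in the mPFC (146 to 296 CPM against 91.2 to 143 CPM), and their part in these differences was not tested. With sex in place of the pool as a term, no member passed in either region, and in overlapping neurons 8 members passed in the NAc and 0 in the mPFC (shares over all genes not given).

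Overlapping neurons were compared with the same non-ensemble libraries. In the NAc 28 members were lower and none was higher (10.7% of all genes lower), with a median of -0.25. The smallest adjusted p belonged to Unc13c (-0.37 ± 0.05), Cplx2 (-0.40 ± 0.06), Nsf (-0.41 ± 0.07) and Snap25 (-0.43 ± 0.07). Nsf ranged from 441 to 642 CPM (median 505) in overlapping libraries, below all 6 non-ensemble libraries (648 to 780 CPM). In the mPFC 22 members were lower and none was higher (9.31% of all genes lower, median -0.22), led by Rab3a (-0.50 ± 0.06), Snap25 (-0.45 ± 0.06), Vamp2 (-0.42 ± 0.07) and Rph3a (-0.44 ± 0.07). Pools M1 and M3 alone gave no member past edgeR's test (12 at p below 0.05 before adjustment, share over all genes not given). Microglial markers were higher in 6 of 6 in both regions, at 281 to 409 CPM in the NAc and 232 to 315 CPM in the mPFC, and the neuron scale gave 12 members higher and 0 lower in the NAc (26.9% higher and 0.433% lower among all genes) and 15 higher and 2 lower in the mPFC (24.8% and 1.09%). With length-scaled counts 7 members were lower in the NAc and 4 in the mPFC (5.71% and 3.61% of all genes).

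The direct comparison of cocaine-seeking with sucrose-seeking neurons shares libraries with those above. In the NAc 31 members were higher in cocaine-seeking neurons and 2 were lower (11.4% higher and 5.57% lower among all genes), with a median of 0.38. Syngr1 ranged from 246 to 404 CPM (median 280) in cocaine-seeking and from 151 to 257 CPM (median 183) in sucrose-seeking libraries, at 0.66 ± 0.06 (SE, adjusted p = 2.4e-07). Syp ranged from 702 to 1156 CPM (median 800) and from 426 to 739 CPM (median 526), at 0.66 ± 0.07 (SE, adjusted p = 6.4e-07). Sv2a (0.59 ± 0.07) and Cplx1 (0.60 ± 0.07) followed. The vesicle class thus had 12 of 14 members higher, and the SNARE and fusion class 10 of 13. Unc13b (-0.36 ± 0.10) and Syn3 (-0.27 ± 0.09) were the 2 lower members. The neuron scale gave 20 higher and 9 lower in the NAc (2.66% higher and 17.4% lower among all genes), length-scaled counts gave 10 higher and 1 lower (3.59% and 1.21%), and male pools alone gave 3 higher (share over all genes not given). Microglial markers summed to 233 to 304 CPM in cocaine-seeking and 92.9 to 154 CPM in sucrose-seeking libraries, and endothelial markers to 65.7 to 139 CPM and 92.3 to 230 CPM, and their part in the difference was not tested.

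In the mPFC 18 members were higher in cocaine-seeking than in sucrose-seeking neurons and 2 were lower (2.76% higher and 3.86% lower among all genes), with a median of 0.19. Syp ranged from 289 to 1234 CPM (median 631) and from 191 to 699 CPM (median 434), at 0.53 ± 0.06 (SE, adjusted p = 7.3e-06). Rab3a (0.45 ± 0.06), Syn1 (0.38 ± 0.06) and Syngr1 (0.44 ± 0.07) had the next smallest adjusted p. The active zone genes Erc2 (-0.30 ± 0.06) and Rimbp2 (-0.26 ± 0.07) were lower. The count fell from 20 to 12 without pool M1, and no member passed in pools M1 and M3 alone (21 at an unadjusted p under 0.05). For these sets the shares over all genes are not given. Length-scaled counts left 1 member higher (0.069% of all genes higher), the model with sex in place of the pool left none, male pools alone left none, and the neuron scale gave 15 higher and 8 lower (2.24% and 5.06% among all genes).

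No difference between cocaine-seeking and overlapping neurons was detected by edgeR's quasi-likelihood test, for members or for any other gene (0% of genes in the NAc and 0% in the mPFC). At an unadjusted p under 0.05 there were 4 members in the NAc (beside 1091 of 25150 genes) and 3 in the mPFC (beside 1167 of 26861), and DESeq2 called 0 members in both. The members' estimates ranged from -0.11 to 0.25 in the NAc, where Rab3a was highest (0.25 ± 0.09), and from -0.18 to 0.15 in the mPFC.

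**Figure D4:**
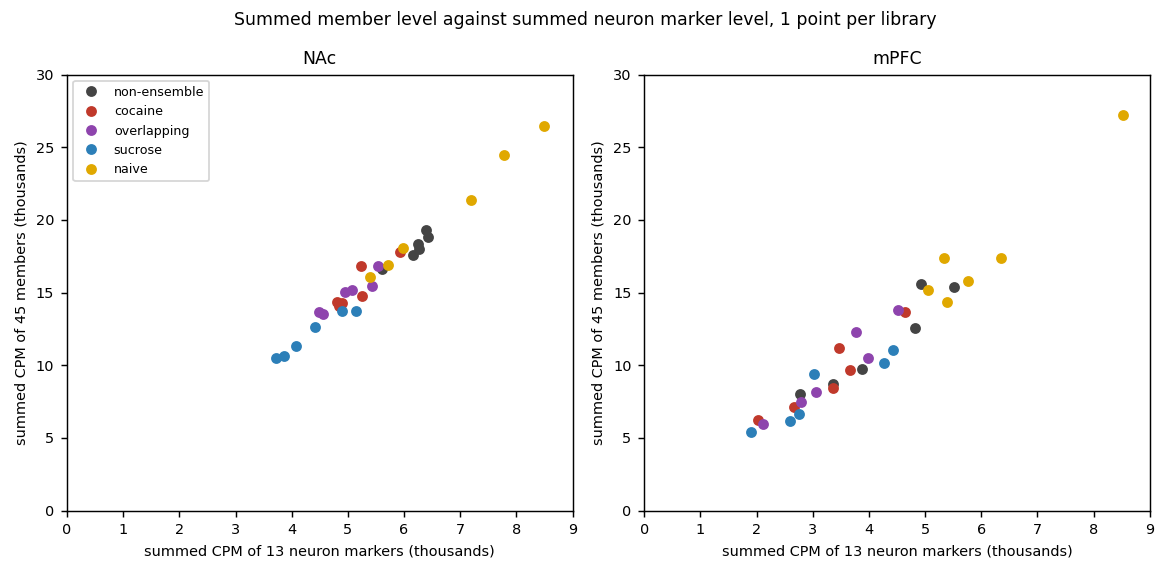
Summed CPM of the 45 members (vertical axis) against the summed CPM of 13 neuron markers (horizontal axis), 1 point per library, NAc left and mPFC right, coloured by population. In the NAc the members sum to 10470 to 13737 CPM in sucrose-seeking and 16616 to 19283 CPM in non-ensemble libraries, and libraries with a low neuron marker sum also have a low member sum.

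The regions were compared over the 4 populations. By the titles 42 of the 45 members were higher in the NAc than in the mPFC and none was lower, beside 25.3% of all genes higher, and the median was 0.59 against -0.19 over all genes. Cplx1 ranged from 555 to 743 CPM in NAc and from 183 to 315 CPM in mPFC non-ensemble libraries, and over all populations differed by 1.50 ± 0.07 (SE, adjusted p = 3.6e-22). Unc13c, a Munc13 best known from cerebellum, ranged from 190 to 382 CPM and from 53.1 to 176 CPM, at 1.34 ± 0.11 (SE, adjusted p = 9.8e-15). Doc2b (97.6 to 170 CPM against 41.1 to 87.1 CPM) and Vamp1 (65.1 to 104 CPM against 33 to 37.7 CPM) were likewise apart in non-ensemble neurons, and differed by 1.20 ± 0.09 and 1.09 ± 0.06. In the active zone class Erc2 (0.93 ± 0.07) and Bsn (0.87 ± 0.09) followed Unc13c. The vesicle class was led by Rab3b (0.90 ± 0.08), Sv2c (0.89 ± 0.08) and Syn2 (0.85 ± 0.07), and the endocytosis class by Dnm1 (0.70 ± 0.09), Snap91 (0.63 ± 0.08) and Amph (0.56 ± 0.08). Doc2a, Cplx3 and Ppfia2 did not pass.

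These errors take the 4 libraries of a pool and region as separate, although they come from the same tissue of the same 3 mice. When the 4 populations were summed to 1 library per pool and region, a choice made after the data were seen, 21 members were higher in the NAc and none was lower (4.47% higher and 2.73% lower among all genes), and 41 had p below 0.05 before adjustment (share over all genes not given). Cplx1 then differed by 1.53 ± 0.19 (SE, adjusted p = 8e-05), Vamp1 by 1.10 ± 0.14 and Unc13c by 1.35 ± 0.23, and Doc2b, Cplx2, Erc2, Bsn, Rab3b, Sv2c and Syn2 passed too. Dnm1 (0.72 ± 0.23, adjusted p = 0.072), Snap91 (0.65 ± 0.20, adjusted p = 0.058) and Amph (0.57 ± 0.19, adjusted p = 0.073) did not pass.

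Pools M1 and M3 gave fewer calls. In pools M1 and M3 alone 13 members were higher in the NAc and 2 were lower (3.06% higher and 2.39% lower among all genes), and the median was 0.16. Unc13c (1.77 ± 0.10), Doc2b (1.29 ± 0.11), Cplx1 (1.21 ± 0.11), Sv2c (1.21 ± 0.12), Vamp1 (0.97 ± 0.12) and Cplx2 (0.95 ± 0.10) stayed higher. Doc2a (-1.01 ± 0.21, adjusted p = 0.0052) and Sv2b (-0.67 ± 0.16, adjusted p = 0.012) were lower in the NAc. Bsn (0.27 ± 0.10), Dnm1 (0.11 ± 0.10), Snap91 (0.11 ± 0.10) and Amph (0.04 ± 0.09) no longer passed. With 1 summed library per pool and region in these 2 pools, Unc13c (1.82 ± 0.42, adjusted p = 0.0051) was the 1 member that passed, beside 0.303% higher and 0.4% lower among all genes in a test with 2 libraries per region. Scaled to the neuron markers over all pools, 15 members were higher and 13 lower (median -0.04), beside 1.95% higher and 84.8% lower among all genes (median -0.82), and the sign of Amph turned (-0.07 ± 0.05). The neuron marker sum itself was 5606 to 6427 CPM in NAc and 2781 to 5521 CPM in mPFC non-ensemble libraries.

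**Figure D5:**
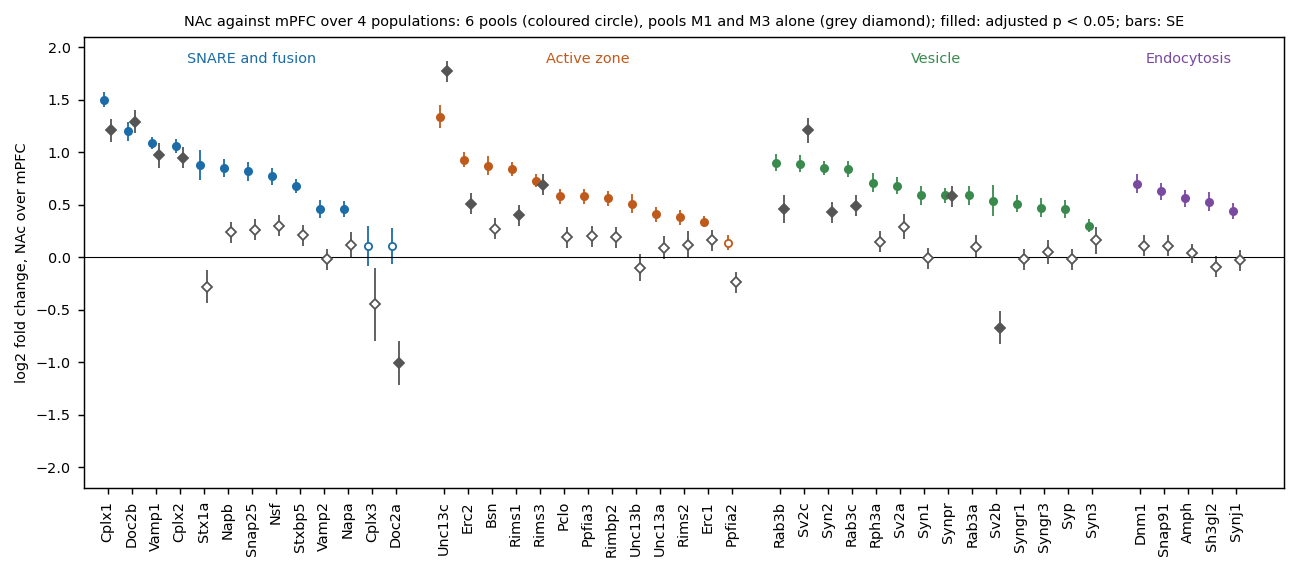
Log2 fold change of each member in the NAc over the mPFC with its SE, over 6 pools (coloured circles) and in pools M1 and M3 alone (grey diamonds), filled where the adjusted p was under 0.05 with the populations of a pool taken as separate libraries. All 45 circles lie above 0, while 13 filled diamonds lie above 0, led by Unc13c, Doc2b, Cplx1 and Sv2c, 2 lie below 0 (Doc2a and Sv2b), and the other 30 are open.

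Whether the sucrose-seeking difference itself varied by region was tested by an interaction. No member passed (11 at an unadjusted p under 0.05, beside 2737 of 28118 genes, and 0.00711% of all genes called), so the calls of 1 region are not shown to be particular to it. Vamp1 had the smallest p (difference of -0.55 ± 0.13, adjusted p = 0.21). For cocaine-seeking and overlapping neurons no member passed either, with 0% of genes called in each and no member at an unadjusted p under 0.05. Between the sexes the sucrose-seeking difference also gave no member in the NAc (0% of genes) or the mPFC (0.0186% of genes), none of them at an unadjusted p under 0.05. DESeq2 called 0 members in each of these 5 tests, and pools M1 and M3 alone gave 0 in the 3 tests between regions. In female pools alone 34 members were lower in the NAc and 29 in the mPFC, and in male pools alone 31 and 30. Shares over all genes are not given for these sets, so the counts cannot be set against a background. Leaving out pool F2, with its Y-linked RNA, left 36 members called in the NAc and 34 in the mPFC.

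The naive libraries were set against the non-ensemble libraries without a pool term, since they are not said to come from the same pools. The spread came from all 30 libraries of a region, with the 4 sorted libraries of a pool taken as separate. Fewer members were called with only the groups compared in the model (given below). In the NAc 8 members were higher in naive libraries and 1 was lower (12.4% higher and 10.7% lower among all genes). Synpr, a vesicle tetraspan, differed by 0.88 ± 0.12 (SE, adjusted p = 2.4e-05), and Napa (0.55 ± 0.12), Unc13a (0.37 ± 0.08) and Cplx3 (1.55 ± 0.38) followed. The count of 9 fell to 4 without the pools numbered F2, to 5 without F3 and to 5 without M2 (shares over all genes not given). In the mPFC 36 members were higher and 1, Syn3, was lower (20.5% higher and 19.4% lower among all genes), led by Cplx1 (1.24 ± 0.21), Synpr (0.83 ± 0.16), Rims3 (1.05 ± 0.21) and Napa (0.72 ± 0.15). In female pools alone 42 members were higher in the mPFC, and in male pools alone 2 were. That contrast was not tested as such, and shares over all genes are not given for these sets. In the mPFC the cortical marker sum was 819 to 1762 CPM in female naive and 355 to 444 CPM in male naive libraries, and the striatal sum was 1553 to 2176 CPM and 3682 to 4413 CPM. Scaled to the neuron markers, 6 members were higher and 3 lower in the mPFC (1.14% higher and 40.6% lower among all genes). The members' median on that scale was 0.09, against -0.65 over all genes. Naive and sorted libraries also differ in depth and in unstated handling, which cannot be told apart from the label.

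Of 57 further genes of the same pathways, 56 were tested, and their medians in sucrose-seeking neurons were -0.52 in the NAc and -0.41 in the mPFC. In the NAc 36 were lower and 6 higher, beside 19.6% lower and 16.8% higher among all genes, and in the mPFC 39 were lower and 4 higher, beside 14.6% and 12.1%. In pools M1 and M3 alone 31 were lower in the mPFC and none was higher. Scaled to the neuron markers, 19 were lower and 21 higher in the NAc and 20 lower and 16 higher in the mPFC. Of the SNARE and fusion genes, Snap47 (-0.73 ± 0.08 in the NAc and -0.71 ± 0.07 in the mPFC) and Prrt2 (-0.57 ± 0.06 and -0.32 ± 0.07) were lower in both regions. Of the active zone genes, Apba1 (-0.81 ± 0.08 and -0.54 ± 0.07) and Rims4 (-0.74 ± 0.09 and -0.51 ± 0.07) were lower, while Tspoap1, a RIM-binding protein gene, was higher (0.44 ± 0.10 and 0.59 ± 0.08). Of the vesicle genes, Sncb (-0.86 ± 0.08 and -0.72 ± 0.08) and the proton pump subunits Atp6v0c (-0.69 ± 0.06 and -0.61 ± 0.06), Atp6v1b2 (-0.74 ± 0.09 and -0.71 ± 0.07) and Atp6v1g2 (-0.75 ± 0.08 and -0.64 ± 0.07) were lower in both regions. So were the clathrin adaptor gene Ap2m1 (-0.76 ± 0.07 and -0.65 ± 0.06), Epn1 (-0.80 ± 0.07 and -0.50 ± 0.07), Clta (-0.76 ± 0.07 and -0.62 ± 0.06) and the uncoating factor Dnajc6 (-0.77 ± 0.07 and -0.67 ± 0.06). The higher ones in both regions were Tspoap1, Ppfia1, Dnm2 and Fcho1, of which Ppfia1 and Dnm2 are the broadly expressed relatives of neuronal members.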

How the data were processed

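Per the labels and the study's methods, the authors prepared ribosome-depleted SMART-seq libraries from sorted events, trimmed reads with cutadapt, checked them with FastQC and quantified transcripts with Salmon against GRCm39 (no versions given in the sources used here), which gave, as deposited, an estimated count of reads and a TPM value (a share of transcripts corrected for effective length) per transcript. Of 117209 transcripts 116085 were matched to 35889 genes, and the 1124 unmatched held 0.932% to 7.1% of the counts and were left out. Estimated counts were summed per gene, rounded to whole numbers and scaled by the trimmed mean of M-values (TMM). CPM values use those library sizes. Genes were filtered with edgeR's default filter and tested in R 4.3.3 with edgeR's quasi-likelihood test (edgeR 4.0.16), with the pool as a block and Benjamini-Hochberg adjustment over all genes tested. A gene was called at an adjusted p below 0.05. The naive comparison had sex as its term in place of the pool. Alternatives used DESeq2 1.42.0, limma 3.58.1 and other scalings, filters and sample sets. The models were also run on simulated counts in which a small set of genes changed, up or down at random. That setting lacks the wide shift between populations seen here, so it cannot test the scaling.

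The 4 populations of a pool came from the same mice, so the pool number pairs the samples. Deviations of same-numbered libraries from their group means had mean correlations of 0.23 to 0.43 within a region. Between the regions they were 0.21 in female and -0.06 in male pools. Values for other numbers (-0.22 to -0.12 within a region) are no separate contrast. Deviations from a group mean cancel out, so these values follow from those of the same number. Replicates differed beyond sampling noise. In the comparisons with the pool as a block, errors cover how the difference between populations varied from pool to pool of 3 mice. Differences in level between pools are taken out by the block. The region comparison takes the 4 libraries of a pool and region as separate, and was repeated on their summed counts. The naive comparison takes them as separate too, and was not repeated on summed counts. Libraries were grouped by title. The members, gene lists and markers were chosen with earlier results of these data known. Named in each region and class were up to 3 members with the smallest adjusted p in sucrose-seeking neurons, up to 4 in each other comparison, up to 3 per class with the largest change between regions, whole paralog families, and up to 3 further pathway genes per class. Other names complete a count and were chosen after their values were seen. An exon of another gene overlaps 10 members (Napb, Doc2a, Unc13a, Ppfia2, Syn1, Syn2, Syn3, Sv2a, Rab3a and Dnm1), whose reads may be split between both, and paralogs can share reads. Effective lengths were read from the same deposited files. Some genes that the naming rule selected are not reported here.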

Additional observations from a re-analysis of the deposited data

Results flagged for a closer look

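In 12 of 184 groups of 6 libraries, 1 library stood far from the other 5 in the level of a member or in the summed level of a class, and chance alone gives about 1 in 20 such groups. The SNARE and fusion genes summed to 5264 CPM in the NAc non-ensemble library of pool F1, the lowest of its group, whose median was 5937 CPM. The naive mPFC library F2 was the highest of its group in 3 classes, with 8449 CPM for the SNARE and fusion genes (group median 5309 CPM), 8818 CPM for the active zone genes (median 4758 CPM) and 3406 CPM for the endocytosis genes (median 2147 CPM). The same library had the highest sum of cortical projection neuron markers among the naive mPFC libraries (1762 CPM). What these libraries share was not tested. Among single members, pool M1 was highest of the NAc non-ensemble libraries for Stx1a (127 CPM, median 77.8 CPM) and Syp (1154 CPM, median 923 CPM), and lowest of the NAc sucrose-seeking libraries for Syn3 (37.9 CPM, median 55.6 CPM). Sv2c was highest in pool M3 of the NAc sucrose-seeking libraries (329 CPM, median 237 CPM) and in pool M2 of the mPFC ones (236 CPM), where M2 was also highest for Doc2b (74.7 CPM, median 41.1 CPM). In the mPFC non-ensemble libraries Cplx3 was highest in pool M3 (14.2 CPM, median 4.98 CPM) and Syn3 lowest in pool F2 (27.7 CPM, median 37.2 CPM).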

How the results depend on the processing

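Of 45 members, the numbers called lower or higher in sucrose-seeking against non-ensemble neurons were 37 in the NAc and 35 in the mPFC, and these moved little when any 1 pool was left out (36 to 38 and 33 to 35). Against the same group, the numbers for cocaine-seeking neurons were 20 (11 to 23) and 26 (21 to 27), and for overlapping neurons 28 (22 to 30) and 22 (20 to 23). Cocaine-seeking against sucrose-seeking neurons gave 33 (28 to 33) and 20 (12 to 23), naive libraries gave 9 (4 to 11) and 37 (27 to 41), and the regions gave 42 (41 to 43). In the same order of comparisons, the stricter threshold gave 11 and 3, 0 and 0, 0 and 0, 0 and 0, 2 and 20, and 16 for the regions. Without the replicate block, that is with sex in place of the pool, the 3 comparisons with non-ensemble neurons gave 35 and 24, 0 and 0, and 8 and 0, and cocaine-seeking against sucrose-seeking neurons gave 22 and 0. Length-scaled counts gave 25 and 19, 2 and 3, 7 and 4, 11 and 1, and 11 and 25. Female pools alone gave 36 and 31, 5 and 14, 9 and 18, 30 and 11, and 9 and 43. Male pools alone gave 32 and 30, 0 and 13, 12 and 3, 3 and 0, 3 and 2, and 21 for the regions. With only the groups compared in the model, naive libraries gave 5 and 23. DESeq2, limma-voom, the size factors of DESeq2, no filter and protein-coding genes alone kept every one of these counts within 1.5 times. Where no share over all genes is stated above, these counts have no background beside them.

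The further settings were chosen after seeing the data. Scaled to neuron markers, the counts were 31 and 32, 9 and 11, 12 and 17, 29 and 23, 12 and 9, and 28 for the regions. Pools M1 and M3 alone gave 29, 0, 0 and 0 in the mPFC and 15 for the regions. Populations summed per pool and region gave 21 for the regions, and 1 in pools M1 and M3. Comparisons of cocaine-seeking with overlapping neurons, and of effects between regions or sexes, stayed at 0 under every alternative run. For 122 values, which are every member called in the sucrose-seeking comparisons and the members named by rule or in the text in the others, 1884 of the values under an alternative kept their direction and side of the threshold, 233 lost the call and 23 changed sign. With length-scaled counts these were, in sucrose-seeking neurons, Bsn (0.09), Ppfia3 (0.58), Rph3a (0.02), Syngr1 (0.22) and Napa (0.09) in the NAc and Rims3 (0.05) and Ppfia3 (0.18) in the mPFC, in cocaine-seeking neurons of the NAc, Bsn (0.07) and Ppfia3 (0.18), and in naive mPFC libraries Syn3 (0.19). Scaled to neuron markers they were Vamp1 (0.05), Stxbp5 (0.35), Napa (0.14), Unc13c (0.20), Rims1 (0.13), Pclo (0.18), Synpr (0.17), Sv2c (0.10) and Snap91 (0.02) in sucrose-seeking neurons of the NAc, Rims1 (0.17), Pclo (0.20) and Sv2c (0.08) in those of the mPFC, and Amph (-0.07) between regions. The cause of these shifts was not tested. Depth limits Cplx3 most, at 18 counts in 1 library.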

Other observations

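The members with the longest span on the chromosome fell least, as a group, in sucrose-seeking neurons by counts not scaled by transcript length. Across the 45 members, Spearman's correlation between log2 fold change and span was 0.47 in the NAc and 0.56 in the mPFC, against -0.12 over 19884 and -0.03 over 20330 protein-coding genes. The points share libraries and are genes, not replicates, so these are descriptions. The 15 members of shortest span (3.9 to 31.5 kb) had a median of -0.70 in the NAc with 13 lower, the middle 15 (38.5 to 178 kb) also -0.70 with 14 lower, and the longest 15 (196 to 856 kb) -0.31 with 8 lower and 2 higher. In the mPFC the medians were -0.59, -0.55 and -0.10, with 13, 13 and 6 lower and 3 of the longest higher. These medians were not computed on length-scaled counts, so the order is not shown to hold there. On those counts, in the NAc, the longest 15 ranged from -1.05 (Sh3gl2) to 0.67 (Rimbp2). The shortest 15 ranged from -0.73 (Vamp1) to 0.58 (Ppfia3). Spearman's correlation between log2 fold change and TPM was -0.63 in the NAc and -0.50 in the mPFC, and that between span and TPM was -0.31 and -0.38.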
